A study of Saccharomyces cerevisiae SK1 with 28 samples.

Results

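The iron and copper uptake genes described here are CTR1, CTR3, FRE1, FRE4, FET3 and FTR1 of budding yeast, 6 of the 551 genes with a systematic name that had at least 1 listed ChIP-seq summit. They were chosen by gene symbol because they stood in the lists, so their presence, rank and summit position are given as a description, with no test. They account for 21 of the 1369 pairings of a listed summit with a promoter in the study. All cells were wild-type SK1, a laboratory strain that sporulates efficiently. The temperature given for every sample is 30 °C, and fixation was in 1% formaldehyde for 15 min. The states included vegetative growth with DTT, a reducing agent that disturbs protein folding in the endoplasmic reticulum (ER). Others were 6 h and 21 h in BYTA, a medium used before sporulation. Sporulation medium was used for 5.5 h, for 6 h 45 min and for 8 h. The last state was vegetative growth in rich medium (YPD) without DTT. Each state had 2 ChIP libraries and 2 input libraries, 28 in all, and the 14 ChIP libraries each had a list of summits. Neither the target of the antibody nor the DTT concentration and exposure time is stated in the sources used here.

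Yeast takes up copper and iron through linked steps at the plasma membrane. Reductases of the FRE family reduce ferric iron and cupric copper outside the cell. The transporters Ctr1 and Ctr3 import the reduced copper. Iron enters through a complex of the multicopper oxidase Fet3 and the permease Ftr1, which must assemble in the ER to reach the cell surface, and Fet3 receives its copper in the secretory pathway. In iron-poor cells the factor Aft1 activates FET3, FTR1 and reductase genes, and in copper-poor cells the factor Mac1 activates CTR1, CTR3 and FRE1. Fet3 and Ftr1 thus depend on copper uptake and on the secretory pathway for their function.

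The lists differed in length. The DTT libraries listed 296 and 245 summits and the libraries at 6 h in BYTA listed 277 and 91, while the other 10 libraries listed between 4 and 23. The score of each summit is the authors' own value, of a type that the file headers do not name, and was used only to order the summits of 1 library. A rank of 1 is the highest score in a library. Peak numbers ran to between 1119 and 3099 per library, so the lists hold a selection of peaks, and a gene without a listed summit is not shown to be unbound. The read depth is unknown from these lists. The labels do not say whether the 2 replicates of a state were separate cultures, and their differences may be technical.

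All 6 genes were listed in both DTT libraries, where 4.68% of the 6021 protein-coding genes were. CTR1, FTR1 and FRE4 were also listed in both libraries at 6 h in BYTA, as were 1.74% of protein-coding genes. CTR3, FRE1 and FET3 were listed there in replicate 1 and not in replicate 2. Replicate 1 listed 5.65% of protein-coding genes and replicate 2 listed 1.84%. None of the 6 was listed in either library at 21 h in BYTA, where 0.764% of protein-coding genes were listed in at least 1. The same held in sporulation medium, where the share was 0.482% at 5.5 h, then 0.448% at 6 h 45 min, then 0.515% at 8 h, and in vegetative cells without DTT, with 0.415%. The lists of these 5 states are short, and the shares of all genes show how few genes were listed in them. Whether few promoters were bound or few summits were detected was not tested. The listing of the members in DTT and 6 h BYTA libraries is what brought them together, so nothing is read from these counts.

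**Figure D1:**
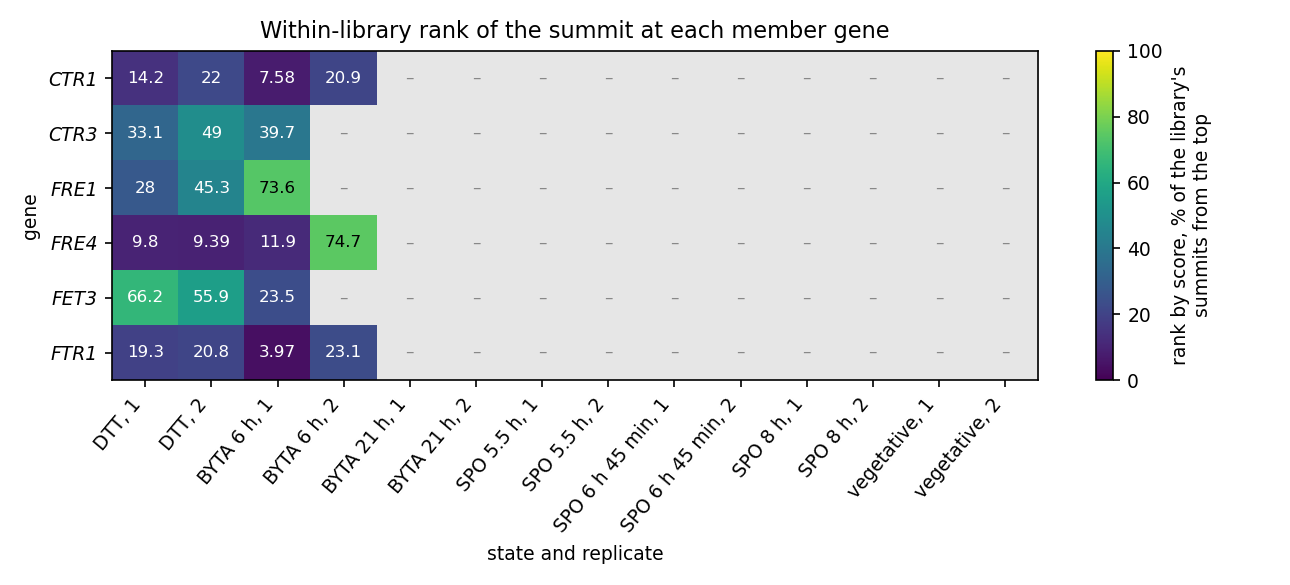
Rank of the summit at each of the 6 genes (rows) in each of the 14 ChIP libraries (columns, state and replicate), as a percentage of that library's summits counted from the highest score; grey cells with a dash are libraries that did not list the gene, and SPO is sporulation medium. Filled cells stand in the DTT and 6 h BYTA columns, with 6 genes in 3 of those libraries and 3 genes in replicate 2 at 6 h in BYTA.

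CTR1 (SK1_16G03760, YPR124W) encodes the main high-affinity copper transporter of the plasma membrane. Its window spans positions 792148 to 792747 of chromosome XVI in the SK1 coordinates of the lists, as for all positions here. Windows were 600 bp wide and ended at the gene start. With DTT its summit ranked 42 of 296 in replicate 1 and 54 of 245 in replicate 2. At 6 h in BYTA it ranked 21 of 277 in replicate 1 and 19 of 91 in replicate 2. CTR1 thus stood within the first 22.0% of the summits in each of the 4 libraries. The gene before it in the R64 reference annotation, AXL1, lies on the same strand, and each CTR1 summit fell in the window of CTR1 alone.

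The CTR1 summit lay at different places in the 2 states. With DTT it lay 387 and 378 bp upstream of the gene start, at positions 792361 and 792370. In the 6 h BYTA libraries it lay 428 and 432 bp upstream, at positions 792320 and 792316. The replicates were 9 bp apart with DTT and 4 bp apart at 6 h in BYTA, and the closest libraries of the 2 states were 41 bp apart, so the states did not overlap. Summits averaged 382.5 bp from the start with DTT and 430.0 bp at 6 h in BYTA, a difference of -47.5 bp (n = 2 each). Summit positions that did not overlap between these states were common, in 62.3% of the 77 genes listed in all 4 libraries. A separation of at least 41 bp was seen in 9.09% of them, 7 genes with CTR1 included, and 3 of the 7 lay nearer the gene start with DTT, as CTR1 did. The other 6, named after their values were seen, were KAR2, RSM7, YBL029C-A, FBA1, YGR161W-C and RTS3. Genes that share a summit, as YGR161W-C and RTS3 do, were each counted, so the 77 genes are not 77 separate summits. Over the 77 genes the median difference was -0.5 bp and the median absolute difference 15.0 bp. With 2 libraries against 2, a two-sided exact permutation test cannot give a p below 0.333.

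CTR3 (SK1_12G04210, YLR411W) encodes the other high-affinity copper transporter of the plasma membrane. Many laboratory strains carry a Ty retrotransposon in its promoter, and the gene before it in R64, YLR410W-A, is a retrotransposon gene. The CTR3 window spans positions 906118 to 906717 of chromosome XII in SK1. Its summit ranked 98 of 296 and 120 of 245 with DTT, and 110 of 277 in replicate 1 at 6 h in BYTA. CTR3 therefore stood in the middle of the lists, below CTR1 in each of the 3 libraries that list both. The summits lay 190 and 194 bp upstream with DTT and 203 bp upstream at 6 h in BYTA, within 13 bp of each other. Summits of the copper transporter genes thus lay at unlike distances, 378 to 432 bp upstream of CTR1 and 190 to 203 bp upstream of CTR3.

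FRE1 (SK1_12G02520, YLR214W) encodes the main ferric and cupric reductase of the cell surface. Its window spans positions 539144 to 539743 of chromosome XII. With DTT the summit ranked 83 of 296 and 111 of 245. In replicate 1 at 6 h in BYTA it ranked 204 of 277, the lowest of the 6 genes in that library. The summits lay 319 and 296 bp upstream with DTT and 305 bp upstream at 6 h in BYTA, so the value at 6 h in BYTA fell between the DTT replicates. FRE1 shares this stretch with CRR1, a divergent gene for a protein of the spore wall, whose start lay 326 and 349 bp away with DTT and 340 bp away at 6 h in BYTA. The summit was thus close to midway, nearer FRE1 in all 3 libraries. CRR1 was listed in these same 3 libraries, and in none of those from sporulation medium. The lists cannot tell which of the pair, if either, the bound protein acts on.

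FRE4 (SK1_14G03580, YNR060W) encodes a reductase of the same family, known for reducing iron bound to the siderophore rhodotorulic acid. Its window spans positions 747457 to 748056 of chromosome XIV. With DTT its summit ranked 29 of 296 and 23 of 245, the best of the 6 genes in both libraries. At 6 h in BYTA it ranked 33 of 277 in replicate 1 and 68 of 91 in replicate 2. It stood high in 3 libraries and in the lower part of the short list of replicate 2. FRE4 summits lay farthest from the gene among the 6, at 544 and 523 bp upstream with DTT and at 538 and 532 bp at 6 h in BYTA. All 4 lay within 21 bp, so the place was the same in both states to within the spread of the DTT replicates. Of all listed pairs, 6.30% and 14.8% lay at least as far from the gene start in the DTT libraries, and 9.77% and 18.3% at 6 h in BYTA. The gene before FRE4 in R64 is MNT4, on the same strand, which was listed in no library.

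FET3 (SK1_13G01740, YMR058W) encodes the multicopper oxidase of the iron uptake complex. Its window spans positions 360025 to 360624 of chromosome XIII. With DTT the summit ranked 196 of 296 and 137 of 245, the lowest of the 6 genes in both libraries. In replicate 1 at 6 h in BYTA it ranked 65 of 277, behind FTR1, CTR1 and FRE4. The summits lay 371 and 365 bp upstream with DTT and 361 bp upstream at 6 h in BYTA, within 10 bp of each other. Each also lay in the window of AAC1, a divergent gene for a mitochondrial ADP/ATP carrier. The start of AAC1 was nearer, at 195 and 201 bp with DTT and 205 bp at 6 h in BYTA. When a summit counted for 1 gene only, the one with the nearer start, FET3 was lost and 5 of the 6 genes were called with DTT. Under that rule 3.75% of all protein-coding genes were called with DTT, against 4.68% without it.

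FTR1 (SK1_05G02200, YER145C) encodes the iron permease that pairs with Fet3. Its window spans positions 481144 to 481743 of chromosome V, on the minus strand. With DTT the summit ranked 57 of 296 and 51 of 245. At 6 h in BYTA it ranked 11 of 277 in replicate 1, the best of the 6 genes there, and 21 of 91 in replicate 2. FTR1 stood within the first 23.1% of the summits in each of the 4 libraries. It ranked above FET3 in each of the 3 libraries that list both partners. The FTR1 summits fell in no other listed window.

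The FTR1 summit was the least fixed of the 6. It lay 110 bp upstream in DTT replicate 1 and 191 bp upstream in DTT replicate 2, at positions 481253 and 481334. In BYTA at 6 h it lay 38 bp upstream in replicate 1 and 173 bp upstream in replicate 2, at positions 481181 and 481316. The states overlapped, and the 2 libraries labelled replicate 1 gave the nearer positions. Replicates were 81 bp apart with DTT, where the median over 282 genes was 5.5 bp and only KAR2, at 120 bp, had a wider gap. In BYTA at 6 h they were 135 bp apart, the widest of the 105 genes listed in both libraries, whose median was 9.0 bp. The summit 38 bp from the gene was also the nearest to a gene start of all 348 listed pairs in that library. A list gives 1 point per peak, so a broad peak and separate sites could not be told apart from it. Replicate gaps of the other 5 genes ran from 4 to 23 bp with DTT, and those of CTR1 and FRE4 were 4 and 6 bp at 6 h in BYTA.

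**Figure D2:**
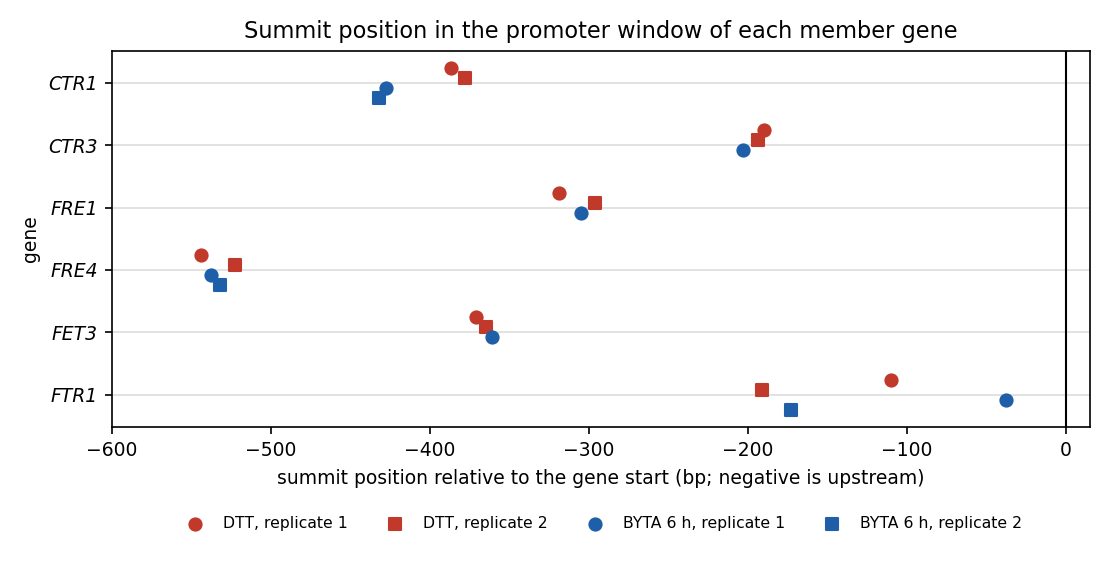
Summit position in bp relative to the gene start for the 6 genes (rows), with DTT libraries in red and 6 h BYTA libraries in blue, replicate 1 as circles and replicate 2 as squares. CTR1 points of the 2 states stand 41 bp apart or more, FTR1 points spread over 153 bp, and those of the other 4 genes fall within 10 to 23 bp.

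The absence of CTR3, FRE1 and FET3 from replicate 2 at 6 h in BYTA was set against summits of like rank. Of the 50 best summits of replicate 1, 48 had a gene that replicate 2 listed, among them those of FTR1, CTR1 and FRE4. The share fell along the list, with 60.0% of ranks 51 to 100, 12.0% of ranks 101 to 150 and 2.0% of ranks 201 to 250. Around FRE1, 2 of the 40 summits within 20 ranks had a gene in replicate 2, and around CTR3 it was 9 of 40. At those ranks most genes were absent from the shorter list. Around FET3, 32 of 40 had a gene in replicate 2 (80.0%), so FET3, with AAC1, was missing where most summits of like rank were found.

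**Figure D3:**
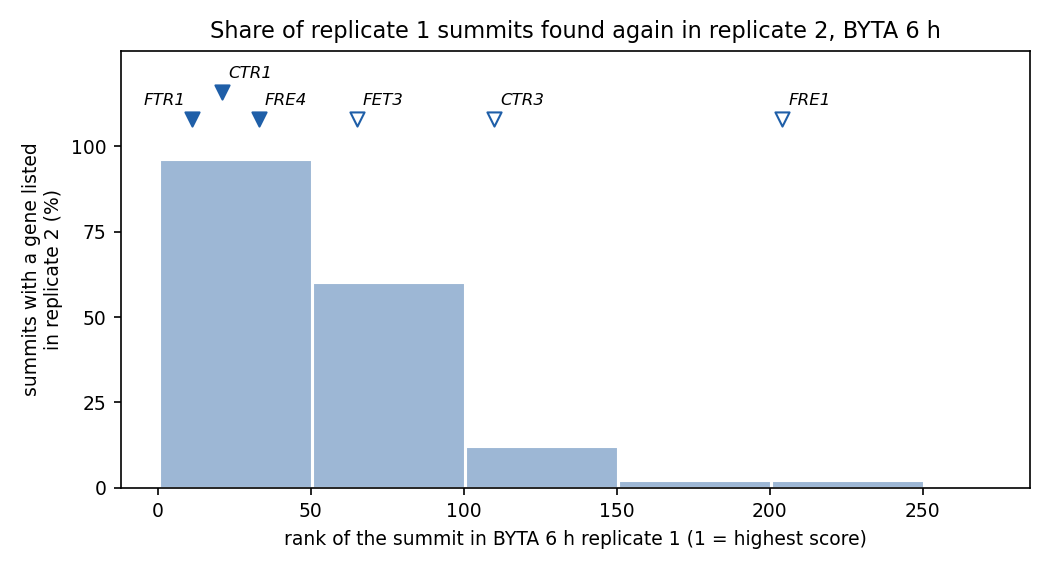
Share of summits of replicate 1 at 6 h in BYTA that had a gene listed in replicate 2 (vertical axis, %), in bins of up to 50 ranks (horizontal axis, 1 is the highest score); triangles mark the ranks of the 6 genes and are filled where replicate 2 listed the gene. The share is 96.0% in the first bin, which holds FTR1, CTR1 and FRE4, and 60.0% in the bin of FET3.

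Ranks from lists of different lengths cannot be compared directly, and the percentages from the top given above describe a place within 1 list only. The genes were therefore also ranked among the 175 protein-coding genes listed in both DTT libraries and in replicate 1 at 6 h in BYTA. FET3 ranked 152.5 and 123.5 with DTT and 63.5 at 6 h in BYTA. FTR1 ranked 65 and 59 with DTT and 10 at 6 h in BYTA, and CTR1 ranked 46 and 61 with DTT and 21 at 6 h in BYTA. These 3 genes stood higher at 6 h in BYTA than in either DTT library. FRE1 ranked 83.5 and 107.5 with DTT and 150.5 at 6 h in BYTA, lower than in either DTT library. CTR3, at 95 and 114 with DTT and 95 at 6 h in BYTA, and FRE4, at 34 and 24 with DTT and 34 at 6 h in BYTA, did not leave the range of the DTT libraries. Leaving the range of the DTT ranks was usual, since 144 of the 175 genes (82.3%) did so, but that share does not measure how far they moved. The shift of FET3 was matched or exceeded by 20.0% of the 175 genes and that of FRE1 by 30.9%. For FTR1 the share was 34.3% and for CTR1 45.7%. These shares include AAC1 and CRR1, which have the same summits. The ranking rests on 1 library at 6 h in BYTA. In the 77 genes listed also in replicate 2, FTR1 ranked 42 and 41 with DTT and 10 and 23 at 6 h in BYTA, CTR1 32 and 43 with DTT and 21 and 22 at 6 h in BYTA. FRE4 ranked 25 and 17 with DTT and 34 and 62 at 6 h in BYTA. Among these genes FTR1 and CTR1 stood higher in both 6 h BYTA libraries than in both DTT libraries, as did 35.1% of the 77. FRE4 stood lower in both, as did 33.8% of the 77, so such separations were common.

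**Figure D4:**
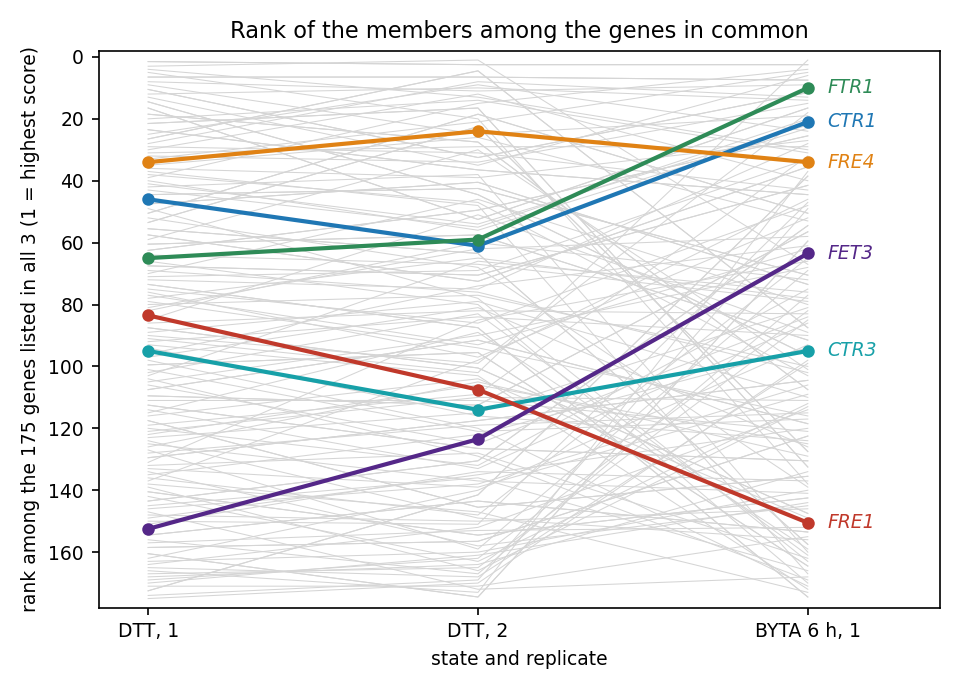
Rank of the 6 genes (coloured lines) among the 175 genes listed in DTT replicate 1, DTT replicate 2 and 6 h BYTA replicate 1 (horizontal axis), with rank 1, the highest score, at the top and the other genes as grey lines. FET3 stands at 152.5, 123.5 and 63.5 and FRE1 at 83.5, 107.5 and 150.5, crossing between the states.

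The order of the genes within a library put FRE4 first and FET3 last in both DTT libraries. In the 3 libraries that list all 6, FTR1, CTR1 and FRE4 were the first 3 in changing order, and CTR3 stood next to last. The listing pattern itself was shared by many of the 551 genes listed in at least 1 library. CTR1, FTR1 and FRE4 had the same pattern over the 14 libraries as 62 genes outside the 6, of which ICT1, ERG27, SPO24, PIL1 and SNQ2 had the best mean rank. CTR3, FRE1 and FET3 had the same pattern as 90 genes outside the 6, of which ADP1, PGK1, GAS5, SIL1 and GNP1 had the best mean rank.

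Other genes of metal uptake and handling were taken from 3 lists. These lists were chosen with earlier results of these data known, so their shares are a description and no enrichment is read from them. The iron list holds 31 genes outside the 6. With DTT, 2 of the 31 (6.45%) were listed in both libraries, close to the 4.68% of all protein-coding genes. They were MRS4, which encodes a mitochondrial iron carrier, and ISU1, which encodes a scaffold protein for iron-sulfur clusters. MRS4 summits lay 297 and 298 bp upstream and ISU1 summits 333 and 331 bp upstream. FTH1, the gene of a vacuolar relative of Ftr1, and TIS11, the gene of an RNA-binding protein that destabilises mRNAs when iron is scarce, were listed in DTT replicate 1 alone, at ranks 271 and 274 of 296.

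Both libraries at 6 h in BYTA shared 0 of the 31 iron genes, where 1.74% of all protein-coding genes were listed in both. Replicate 1 listed 9 of 31 (29.0%), where 5.65% of all protein-coding genes were listed, and replicate 2 listed 1 of 31 (3.23%), where 1.84% were. The 9 genes were TIS11, FTH1, ISU1, FRE3, SIT1, HMX1, MRS4, CTH1 and FIT1, at ranks 91 to 233 of 277. FRE3 encodes a siderophore reductase, SIT1 a siderophore transporter, HMX1 a heme oxygenase, CTH1 a relative of Tis11 and FIT1 a cell wall protein that holds siderophores. FRE3, SIT1, HMX1, CTH1 and FIT1 were listed in no other library. TIS11, CTH1 and ISU1 share their summits with another gene, YLR137W, GIR2 and GIP3 in that order, and YLR137W and GIR2 are the nearer ones. Replicate 2 listed ARN1, a siderophore transporter gene, at rank 86 of 91, with a summit 502 bp from ARN1 and 310 bp from its neighbour YHL039W. The 9 genes thus rest on 1 library, and 8 of them stood after rank 100, where few summits of replicate 1 had a gene in replicate 2. The other 21 iron genes were listed in no library, among them the regulator genes AFT1 and AFT2, the low-affinity transporter gene FET4 and FET5, whose product pairs with Fth1 at the vacuole. Absence from every list was the rule for all genes, since only 551 of the 6021 protein-coding genes were listed in any library.

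Of the copper list, 11 of 12 genes matched the reference table. In at least 1 library 3 of the 11 were listed, as were 551 of the 6021 protein-coding genes. FRE7, a copper-regulated reductase gene, was listed in both DTT libraries (1 of 11, 9.09%, against 4.68% of all protein-coding genes) and in replicate 1 at 6 h in BYTA, which listed 5.65% of all protein-coding genes. Its summits lay 266 and 263 bp upstream with DTT and 264 bp upstream at 6 h in BYTA, within 3 bp of each other. SOD1, the gene of copper-zinc superoxide dismutase, was listed in replicate 1 at 6 h in BYTA at rank 164 of 277, with a summit that ADO1 shares at a greater distance. CTR2, the vacuolar copper transporter gene, was listed in replicate 2 of vegetative cells without DTT, at rank 12 of 13, and nowhere else. That library listed 0.282% of all protein-coding genes. MAC1, and the genes ATX1 and CCC2 that deliver copper to Fet3 in the secretory pathway, were listed in no library. Among the genes FRE1 to FRE7, those listed in both DTT libraries were thus FRE1, FRE4 and FRE7. FRE3 was listed in 1 library, at 6 h in BYTA, and FRE2, FRE5 and FRE6 were listed in none.

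Genes of zinc and other metal transport were listed in DTT libraries. With DTT, 3 of 14 (21.4%) were listed in both libraries, against 4.68% of all protein-coding genes, namely the zinc transporter gene ZRT2, the zinc regulator gene ZAP1 and the phosphate transporter gene PHO84. Their summits in the DTT replicates lay 270 and 273 bp upstream of ZRT2, 126 and 124 bp upstream of ZAP1, and 432 and 429 bp upstream of PHO84. The ZAP1 summits also lay 158 and 160 bp upstream of YJL055W. Neither 6 h BYTA library listed any of the 14, a count of 0, where 5.65% of all protein-coding genes were listed in replicate 1 and 1.84% in replicate 2. The difference between the states was not tested, and counts this small move by a large share with 1 gene.

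**Figure D5:**
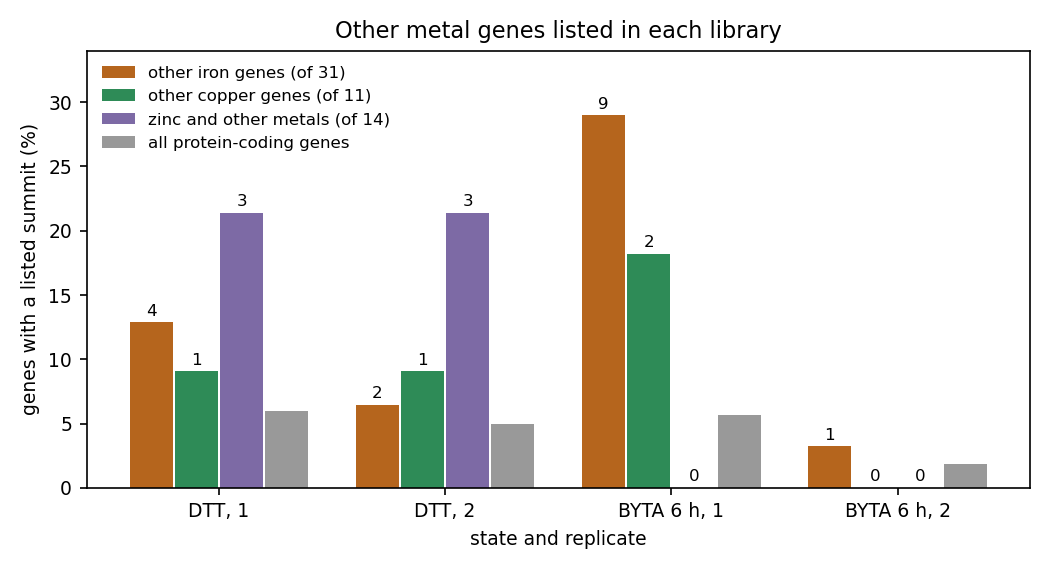
Share of the genes of 3 metal lists, the 6 uptake genes left out, and of all protein-coding genes with a listed summit (vertical axis, %) in the DTT and 6 h BYTA libraries (horizontal axis, state and replicate); numbers above bars are genes. The iron list reaches 29.0% in replicate 1 and 3.23% in replicate 2 at 6 h in BYTA, and zinc and other metals reach 21.4% in both DTT libraries. The lists were chosen with earlier results of these data known.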

How the data were processed

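Lists of ChIP-seq summits from 14 ChIP libraries of wild-type SK1 yeast were used, without the 14 input libraries. The submitters' processing notes name, with no roles, the tools ChIPseeker 1.44.0, MACS2 2.2.9.1, SAMtools 1.7 and Bowtie2 2.3.4.1. Per the file headers, each row pairs 1 summit with a promoter window and a gene, and the deposited score is the authors' value. Which assembly and controls were used, and how the listed summits were chosen, is not stated in the sources used here. The library name inside the peak names tied each list to 1 library, so each replicate had its own list. Deposited positions are in bp, per the file headers.

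Distances ran from the summit to the base after the window, and ranks were taken over the distinct summits of a library (Python 3.11.15, pandas 2.3.3). A gene was called when both libraries listed it. All 551 systematic names matched the R64 gene table. Scripts were tested on simulated data. The 6 genes and the metal lists were chosen with earlier results of these data known. Genes named are the 6, their neighbours, listed members of the metal lists and the 5 best-ranked genes of like pattern, while any further gene was picked with its values in view. Tried besides were calls in either library, each replicate alone, the nearest gene only, scores of at least 500 and ranks over rows. Ranks among genes in common, and comparisons with all genes listed in the same libraries, were added after the data were seen.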

Additional observations from a re-analysis of the deposited data

How the results depend on the processing

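The count of the 6 genes called with DTT was 6 in either library and with each replicate alone. It was 5 with the nearest gene only (FET3 lost) and 6 with scores of at least 500. The share of all protein-coding genes called with DTT was 4.68%, and 6.28% in either library. It was 4.98% without replicate 1, 5.98% without replicate 2, 3.75% with the nearest gene only and 3.45% with scores of at least 500. At 6 h in BYTA 3 were called, against 6 in either library and 3 to 6 with 1 replicate left out, 6 being without replicate 2. It was 3 with the nearest gene only and 2 with scores of at least 500 (FRE4 lost). The share of all protein-coding genes called at 6 h in BYTA was 1.74%, and 5.75% in either library. It was 1.84% without replicate 1, 5.65% without replicate 2, 1.36% with the nearest gene only and 1.08% with scores of at least 500. In the other 5 states the count of the 6 genes was 0 under each of these alternatives. The largest share of protein-coding genes under any of them was 0.764%, in either library at 21 h in BYTA. Of the 31 genes of the iron list, 2 were called with DTT, and 4 in either library. At 6 h in BYTA 0 were called, and 10 in either library. The shares of all protein-coding genes under these settings are those given above. Ranks taken over rows moved a percentage from the top by at most 1.8 points over 21 values. No paired analysis was possible because these results come from no test. Read depth is unknown. The lists outside DTT and 6 h in BYTA are short, and a gene absent from them is not shown to be unbound.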
